A study of Mus musculus with 23 samples.

Results

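The response of wild-type (wt) macrophages to lipopolysaccharide (LPS), the cell wall component of Gram-negative bacteria, was taken from 8 of 23 arrays, namely the 4 of wt BMDM treated with LPS and the 4 of wt BMDM kept in medium, which were chosen by their labels alone. Bone marrow-derived macrophages (BMDM) are primary cells grown from marrow. Here the marrow came from the femurs of male C57BL/6 wt mice aged 12 to 13 weeks and was cultured for 9 days with 10 ng/ml of the growth factor M-CSF. The cells were moved to medium without M-CSF 1 h before the treatment and were then treated for 120 min with LPS at 100 ng/ml or with medium only, so both groups had lost M-CSF for equally long. The remaining 15 arrays were 7 of MK2-/- and 8 of MK2/3-/- BMDM, which lack the kinase MK2 or both MK2 and MK3. Both genotypes had arrays of cells treated with LPS and of cells kept in medium. These arrays entered the estimate of the spread and a single comparison at the end. The MK2-/- mice were aged 10 to 13 weeks, and the MK2/3-/- mice included some younger and some older than the wt mice. RNA of each culture was labelled with 1 dye and hybridised to an Agilent array. A level is the quantile-normalized log2 signal of the probe of a gene, a change is the difference of the group means (LPS minus medium), and ± after a change is its standard error (SE) in a limma fit with 4 arrays against 4. Genes whose p-value, adjusted over all genes by Benjamini-Hochberg, was under 0.05 are said to have risen or fallen.

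Macrophages sense LPS through CD14, MD-2 and TLR4. At the cell surface TLR4 signals through the adaptor MyD88 to NF-kB and to the MAP kinases, and from endosomes it signals through TRIF (Ticam1) to the kinase TBK1 and to IRF3, which together with NF-kB switches on Ifnb1. Secreted interferon-beta then acts back on the cells through IFNAR, JAK kinases and STAT factors and raises the interferon-stimulated genes. Early inflammatory transcripts are short-lived, and RNA-binding proteins such as tristetraprolin (Zfp36) and regnase-1 (Zc3h12a) remove them again.

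Of the 13 macrophage markers measured, all were well above background in a group, that is, the Agilent software marked the probe as such on all 4 of its arrays. Their levels in medium were 18.57 ± 0.06 (SD) for Csf1r, the M-CSF receptor, 16.63 ± 0.40 (SD) for Adgre1 (F4/80) and 17.24 ± 0.43 (SD) for the lysozyme gene Lyz2, and none of these changed in the fit over all arrays. With the replicate number as a fixed block in the 8 wt arrays, Lyz2 (-0.51 ± 0.29) passed (adjusted p = 0.0340), being higher after LPS in 0 of 4 pairs. Cd14 rose, and Itgam, Fcgr1 and Mertk were among 4 that fell. The summed signal of the 13 markers, on the log2 scale, ranged from 19.80 to 20.27 in medium and from 19.77 to 20.17 after LPS. Markers of other cells were not all at background. The stromal collagen gene Col1a1 stood at 14.36, 9.49, 12.23 and 13.23 on medium replicates 1 to 4 and at 14.03, 9.40, 12.11 and 13.20 on the LPS arrays, so it differed strongly between the 4 experiments and hardly within them. The summed signal of the 7 fibroblast and stromal markers, of which only Lum was well above background on no wt array, ranged from 12.14 (replicate 2) to 16.70 (replicate 1) in medium and from 11.99 to 16.43 after LPS in the same order, and 0 of the 7 changed. Of 10 T and NK cell markers, Lck rose by 2.53 ± 0.75 and Klrb1c at least 1.32-fold (2 of 4 LPS arrays well above background). Neither passed with the replicate number as a fixed block (adjusted p = 0.0693 and 0.0870). Cd4 and Cd3e, with means of 11.33 and 10.04 in medium, were well above background on all 8 wt arrays, and Cd3d and Cd8b1 on none. The summed signals lay between 11.57 and 12.27 in medium and between 11.84 and 12.49 after LPS. Of 7 dendritic cell markers Zbtb46 rose, Clec9a and Xcr1 were not well above background, and the sums lay between 16.80 and 17.24 in medium and between 16.07 and 17.37 after LPS. Siglech, with a mean of 16.96 in medium, was well above background on all 8 wt arrays and made up most of these sums. No B cell (8), neutrophil (8), mast cell (6) or erythroid (5) marker changed, with or without a random replicate block for the culture over all arrays, but with the replicate number as a fixed block in the 8 wt arrays the neutrophil precursor gene Ngp, higher after LPS in 4 of 4 pairs by 1.99 ± 1.15, passed (adjusted p = 0.0102). The neutrophil sums lay between 12.01 and 13.29 in medium and between 12.07 and 13.61 after LPS. Elane and S100a9, with means of 11.57 and 10.32 in medium, were well above background on all wt arrays. The random block added Spi1 and Tyrobp to the macrophage markers that changed (adjusted p = 0.0335 and 0.0334) and Xcr1 to those of dendritic cells (adjusted p = 0.0399). None of them passed with the fixed block (adjusted p = 0.0556, 0.145 and 0.0699). In such bulk RNA fewer cells of a type and less RNA per cell cannot be told apart. All 8 wt arrays lay on 1 slide, with medium in row 1 and LPS in row 2, so treatment and slide row cannot be told apart.

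LPS changed 4648 of 26014 genes, or 17.9%, and 1969 (7.57%) rose while 2679 (10.3%) fell. Of the 13457 named genes well above background in a wt group, 12.0% rose and 16.4% fell. Most members of the gene groups below were well above background, so their counts are to be read beside these larger shares. The macrophage transcription factors and nuclear receptors (11.5% rose, 15.4% fell) and the fatty acid genes (12.5% and 16.7%), for example, lay near them. The 2 directions differed in size. At least 4-fold rises were seen for 620 genes and falls of that size for 382, at least 16-fold rises for 169 genes and falls for 20, and 20 genes rose at least 256-fold, whereas no fall reached 64-fold. These are fitted folds, which for a gene below background in 1 group are no bound. Among the called genes, which the same values chose, the lowest LPS array lay above the highest medium array for 1714 of the genes that rose and the reverse was true for 2374 of those that fell. Over all 26014 genes, called or not, the groups stood apart in this way for 2666 and 3326. The replicate numbers pair the wt medium and LPS arrays, and with the culture as a random replicate block 2511 genes rose and 3585 fell. Of the members of the gene groups below, 84 passed with this block in addition and 0 no longer passed, and a p or count given with the block refers to it. Many of the 84 did not pass with the replicate number as a fixed block in the 8 wt arrays. Examples are Irf3 (adjusted p = 0.203), Cd86 (0.110), Stat3 (0.0836) and Csf1 (0.0655), while others such as Il17ra (0.0204) and Arntl (0.0427) passed there too. The balance between the directions depended on the scaling. With each array scaled to its 75th percentile in place of quantile normalization, 2272 genes rose and 1942 fell, so that 53.9% instead of 42.4% of the calls were rises, and the median change of all genes moved from -0.035 to 0.110 on the log2 scale. Small changes in either direction are therefore to be read relative to that shift.

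**Figure D1:**
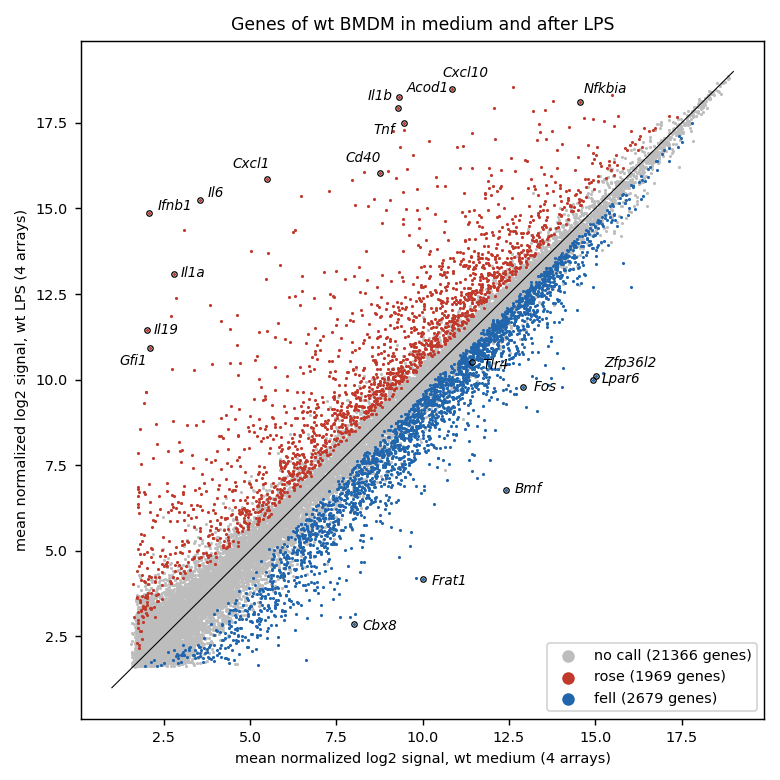
Each point is 1 of the 26014 genes, with its mean normalized log2 signal on the 4 wt medium arrays on the x axis and on the 4 wt LPS arrays on the y axis, and the line marks equal levels. Genes that rose (red, 1969) reach far above the line, up to Ifnb1 with a change of 12.79, while genes that fell (blue, 2679) stay closer to it, down to Frat1 with -5.82.

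The 4 experiments did not respond equally strongly. Among the 618 genes that rose at least 4-fold and had values on all wt arrays, LPS replicate 2 was the highest LPS array for 426 and LPS replicate 4 the lowest for 364. The same order was seen from the other side among the 382 genes that fell at least 4-fold, where LPS replicate 2 was the lowest array for 232 genes and LPS replicate 4 the highest for 207. The median distance of LPS replicate 2 from the mean of the other LPS arrays was 0.72 for the genes that rose and -0.75 for those that fell, and that of LPS replicate 4 was -0.64 and 0.69. Replicate 2 was also the experiment with the lowest sum of stromal markers, whereas replicate 4 was second to replicate 1 in that sum, and the part of stromal cells in the size of the response was not tested. Without LPS replicate 2, 1558 genes rose and 2048 fell. Without LPS replicate 4, 2109 rose and 2925 fell.

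Of the 15 largest rises 8 belonged to cytokines and chemokines. Ifnb1, interferon-beta, led the list. It was not well above background on any medium array, with levels of 1.95, 2.23, 1.98 and 2.16, and it reached 14.58, 15.54, 14.10 and 15.26 after LPS (adjusted p = 2.61e-13), which is at least 2730.3-fold higher when the medium arrays are set to their lowest signal well above background. Il6, the fever and acute phase cytokine, was at 5.40, 3.73, 2.53 and 2.60 in medium, with 2 of 4 arrays well above background, and at 15.24, 16.67, 14.73 and 14.29 after LPS, a change of 11.67 ± 0.86 (adjusted p = 7.54e-09). The neutrophil attractant Cxcl1 went from 6.71, 5.38, 5.59 and 4.34 to 16.06, 16.11, 15.60 and 15.73. In these 3 genes the lowest LPS array lay at least 8 log2 units above the highest medium array. Il1a was at 3.75, 2.40, 2.22 and 2.80 in medium, with 1 array well above background, and at 13.12, 13.68, 12.71 and 12.90 after LPS. Il19, an IL-10 family cytokine, was again below background in medium and rose at least 254-fold, and so did Olr1, the oxidised LDL receptor LOX-1, with at least 335-fold, and the transcriptional repressor Gfi1 with at least 178-fold. Acod1, the enzyme that makes itaconate, went from 9.91, 9.62, 8.79 and 8.98 to 18.14, 18.28, 18.56 and 18.05. Cxcl2, Cxcl3, Il1b, the plasminogen activator Plat, the guanylate-binding protein Gbp5, the cytokine signalling inhibitor Cish and the MAP kinase phosphatase Dusp2 completed the 15, with changes between 8.11 and 8.90. Some changes given here and below rest partly on background signal. In medium only 1 of 4 arrays was well above background for Il1a, Ccl22, Areg, Gem, Mmp10, Rasgrp1 and Cd55. It was 2 for Il6, Plat, Hdc, Ifna7 and Zfp819, and 3 for Cxcl3, Ccl12, Edn1, F3, Adamts4, Adora2a, Lpar1 and Slc7a11. After LPS it was 1 of 4 for Rhov, Dnajc28, Dlx2, Cbx8, Hes1, Klf11 and Per2, 2 for Zfp647, and 3 for Frat1, Arrdc3, Fam78a and Zfp273.

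**Figure D2:**
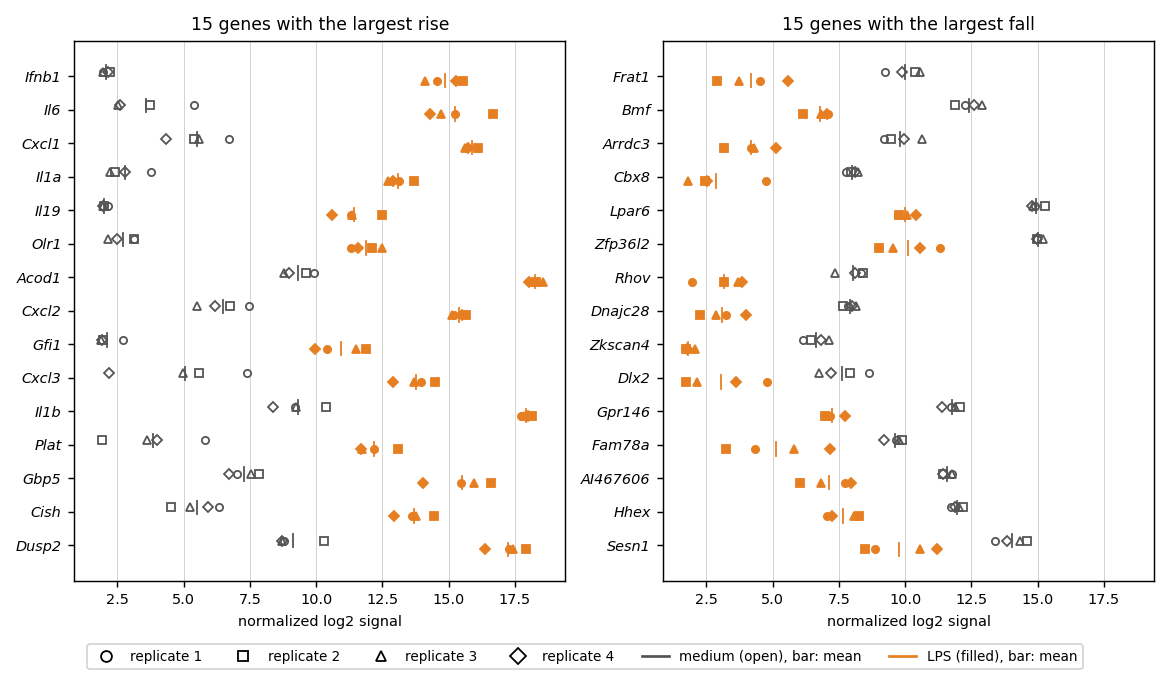
Normalized log2 signal (x axis) on each of the 8 wt arrays for the 15 genes with the largest rise (left) and the 15 with the largest fall (right), medium open and LPS filled, with a bar at each group mean and a symbol for each replicate number. The 30 genes were chosen among those whose medium and LPS arrays do not overlap. LPS replicate 2 (square) is often the most extreme LPS array.

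Of 18 pro-inflammatory cytokines measured, 13 rose and 0 fell, with a median change of 3.87 beside -0.035 for all genes. Tnf, the early cytokine of the endotoxin response, was at 9.20, 10.35, 9.09 and 9.24 in medium and 17.35, 17.98, 17.37 and 17.24 after LPS, a change of 8.02 ± 0.37. Il1b was likewise already expressed in medium, at 9.21, 10.37, 9.24 and 8.36, and reached 17.71, 18.14, 17.85 and 18.00. Medium replicate 2 was the highest medium array for both. Il23a, a subunit of IL-23, rose at least 34.6-fold from below background, Il33 at least 8.9-fold and the lymphotoxin gene Lta at least 5.49-fold. Il2 (6.07 ± 0.63), Clcf1 (4.74 ± 0.48), Il27 (4.02 ± 0.43), Il15 (3.11 ± 0.52) and Il18 (1.02 ± 0.33) rose less. So did Ebi3 (2.50 ± 0.29), which had values on 3 medium arrays only, all well above background. Mif, Osm, Lif, Il12a and Il17ra did not pass the test, but with the block Osm, Lif and Il17ra did (adjusted p = 0.0374, 0.0496 and 0.0196). Among 12 anti-inflammatory cytokines, receptors and decoys, 5 rose and 0 fell. Il10, which restrains macrophages, went from 5.28, 6.10, 6.30 and 5.61 to 11.73, 12.10, 11.51 and 11.34, the IL-1 receptor antagonist Il1rn rose by 4.93 ± 0.48 and the IL-4 receptor Il4ra by 1.50 ± 0.39, while Tgfb1 stood at -0.01 ± 0.18. Of 18 colony-stimulating and growth factors 4 rose. Csf2 (GM-CSF) and Csf3 (G-CSF) came from below background, by at least 72.9-fold and 3.34-fold, Edn1 (endothelin-1) rose by 6.40 ± 1.02 and the EGF receptor ligand Areg by 4.37 ± 0.55 (1 medium array). Csf1, the gene of M-CSF itself, had a change of 2.40 ± 0.92 that did not pass (adjusted p = 0.0809, or 0.0339 with the block).

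Chemokines, the proteins that call leukocytes to a site, were the next group. Of 12 CXC chemokines 6 rose and 0 fell, and of 17 CC and CX3C chemokines 11 rose and 0 fell. Cxcl2 went from 7.46, 6.75, 5.49 and 6.18 to 15.21, 15.66, 15.11 and 15.51. Cxcl10, an interferon-inducible attractant of T cells, started at 10.52, 11.64, 11.00 and 10.30 and reached 18.54, 18.49, 18.47 and 18.40, with nearly equal values on the LPS arrays. These lie near the top of the scale. Quantile normalization gives all arrays the same set of values, and 18.54 recurs for Ccl5 on LPS replicate 3. Closeness near this ceiling therefore says little about how equal the response was. Cxcl9 rose by 5.91 ± 0.82 and Cxcl5 at least 7.52-fold. The monocyte attractant Ccl2 was at 10.16, 8.08, 7.38 and 7.58 in medium and 16.79, 16.44, 14.63 and 16.44 after LPS. Its neighbours in function Ccl7 and Ccl12 rose by 8.08 ± 0.81 and 7.54 ± 0.50, Ccl22 and Ccl17, which attract cells bearing CCR4, by 7.55 ± 0.67 (1 medium array) and 6.13 ± 0.65, and the inflammatory chemokines Ccl3, Ccl4 and Ccl5 by 5.88 ± 0.32, 5.93 ± 0.35 and 2.81 ± 0.52. Cxcl12, Cxcl13, Cxcl14, Cxcl16, Ccl6 and Ccl25 did not pass. On the receiving side, 7 of 18 chemoattractant receptors rose and 1 fell. The formyl peptide receptors Fpr2 and Fpr1 rose by 6.06 ± 0.61 and 5.53 ± 0.75, the chemerin-binding receptor Ccrl2 by 6.00 ± 0.27, the medium-chain fatty acid receptor Gpr84 by 5.80 ± 0.35 and the complement receptor C5ar1 by 1.59 ± 0.26. Cxcr4, the receptor of Cxcl12, was the only receptor of the list that fell, from 11.42, 11.90, 12.00 and 11.78 to 7.22, 7.03, 9.18 and 9.82, and LPS replicates 1 and 2 were lower than replicates 3 and 4. Ccr2, Ccr1 and Cx3cr1 did not pass, with changes of -0.997, -0.21 and -0.70, of which Cx3cr1 passed with the block (adjusted p = 0.0483).

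The type I interferon genes rose very unequally. Beside Ifnb1, 7 Ifna genes rose, from 0.99 ± 0.33 for Ifna12 to 1.67 ± 0.46 for Ifna7 (2 medium arrays). The Ifna genes are near-identical copies, so their probes may share transcripts and are uncertain as separate measurements. Of 41 interferon-stimulated genes 28 rose and 0 fell, with a median change of 2.26. Rsad2 (viperin), an antiviral enzyme, went from 8.43, 10.11, 9.98 and 8.85 to 16.68, 17.83, 17.07 and 15.56, and Ifit1, which binds foreign RNA, from 9.01, 10.19, 9.77 and 7.93 to 15.99, 16.50, 16.06 and 14.99. Both were lowest on LPS replicate 4 and highest on LPS replicate 2. Gbp5 went from 7.01, 7.85, 7.56 and 6.71 to 15.45, 16.61, 15.96 and 14.02. Cmpk2 rose by 6.19 ± 0.64, Oasl1 by 5.79 ± 0.46, Gbp2 by 4.88 ± 0.49, Ifit2 by 4.81 ± 0.58 and the ubiquitin-like modifier Isg15 by 4.33 ± 0.34. Further interferon-stimulated genes did not pass, among them Irf7 (0.61 ± 0.66), Oas2 (0.75 ± 0.54), Oasl2 (0.99 ± 0.47), Bst2 (-0.12 ± 0.32) and Iigp1 (0.67 ± 0.64). Mx1 and Mx2 were not measured under these symbols. Of 9 interferon regulatory factors 4 rose, among them Irf1 (3.68 ± 0.29), Irf4 (3.28 ± 0.66) and Irf5 (0.52 ± 0.15). Irf3, which acts upstream of Ifnb1, stood at 0.42 ± 0.16 and passed with the block (adjusted p = 0.0446). Of 15 JAK, STAT and interferon receptor genes, Jak2 (3.55 ± 0.22) and Stat5a (2.81 ± 0.46) rose and Ifnar1 (-0.60 ± 0.17) fell. Ifnar1 was not called with 75th percentile scaling, where 4 of these genes rose and 0 fell. With the block 5 rose and 1 fell, Stat3 (adjusted p = 0.0238) and Stat4 (0.0485) among those added. Stat2 had a change of 0.89 ± 0.45 that did not pass.

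All 5 NF-kB subunits rose. Rel (c-Rel) changed most, from 4.23, 4.79, 4.75 and 4.06 to 8.78, 9.46, 9.51 and 9.13, followed by Nfkb2 (2.84 ± 0.20), Relb (2.26 ± 0.16), Nfkb1 (2.11 ± 0.29) and Rela (1.42 ± 0.14). The inhibitors rose with the factors. Of 14 genes for IkB proteins and other NF-kB inhibitors, 10 rose and 0 fell, with a median change of 2.68. Nfkbia, which codes for IkB-alpha, was at 14.41, 14.78, 14.68 and 14.42 in medium and 18.04, 18.21, 18.27 and 17.92 after LPS, and the arrays of each group lay close together. Tnfaip3 (A20), a ubiquitin-editing enzyme, went from 10.11, 10.43, 10.11 and 10.14 to 16.87, 17.49, 17.01 and 16.56, and Nfkbiz, a nuclear IkB that helps to switch on Il6, from 7.81, 9.13, 8.47 and 8.06 to 13.44, 13.96, 13.78 and 13.87. Nfkbie rose by 4.45 ± 0.37, Nfkbib by 2.87 ± 0.14 and the A20 partner Tnip1 by 3.15 ± 0.13. The deubiquitinase Cyld did not pass (-0.50 ± 0.28). A second layer of inhibitors acts on cytokine signalling. Of 11 SOCS and PIM genes 7 rose and 0 fell. Socs3, the brake on IL-6 signalling, went from 9.97, 9.57, 9.12 and 9.15 to 17.31, 17.72, 17.41 and 16.77. Cish went from 6.34, 4.53, 5.26 and 5.91 to 13.61, 14.43, 13.78 and 12.93, Socs1 rose by 7.48 ± 0.50 and the kinase Pim1 by 5.21 ± 0.23, whereas Socs2 and Socs6 stood at 0.15 and -0.19.

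The promoters of some of these genes are shown because they hold the letters that NF-kB or interferon-activated factors are known to bind. Each stretch is the 150 bases before the start of the gene, 5′ to 3′ on the strand of the gene, from RefSeq on the build GRCm38.p6, and capitals mark a match to the kappa B consensus, to the interferon-stimulated response element (GAAA, any 2 bases, GAAA) or to the AP-1 site (TGANTCA) on either strand. The capitals of Cxcl1, Cxcl2 and Isg15 cover overlapping matches of the same motif. The first 5 are genes of the cytokine, chemokine and NF-kB groups and the last 3 are interferon-stimulated genes. The regions are chr4:88522795-88522944 (minus strand) for Ifnb1, chr5:30012964-30013113 (plus) for Il6, chr5:90891095-90891244 (plus) for Cxcl1, chr5:90903749-90903898 (plus) for Cxcl2, chr12:55492648-55492797 (minus) for Nfkbia, chr19:34640739-34640888 (plus) for Ifit1, chr12:26456453-26456602 (minus) for Rsad2 and chr4:156200819-156200968 (minus) for Isg15.
Ifnb1: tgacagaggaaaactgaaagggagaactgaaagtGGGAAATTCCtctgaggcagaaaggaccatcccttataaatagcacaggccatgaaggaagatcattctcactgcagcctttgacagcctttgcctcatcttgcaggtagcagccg
Il6: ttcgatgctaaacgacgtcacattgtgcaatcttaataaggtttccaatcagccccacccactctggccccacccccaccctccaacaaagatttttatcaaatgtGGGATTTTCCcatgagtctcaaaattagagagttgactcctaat
Cxcl1: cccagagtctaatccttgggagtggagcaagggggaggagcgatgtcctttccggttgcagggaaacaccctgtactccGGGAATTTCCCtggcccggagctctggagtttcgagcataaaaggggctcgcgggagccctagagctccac
Cxcl2: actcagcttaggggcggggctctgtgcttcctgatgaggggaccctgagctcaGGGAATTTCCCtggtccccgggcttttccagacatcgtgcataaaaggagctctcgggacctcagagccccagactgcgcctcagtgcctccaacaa
Nfkbia: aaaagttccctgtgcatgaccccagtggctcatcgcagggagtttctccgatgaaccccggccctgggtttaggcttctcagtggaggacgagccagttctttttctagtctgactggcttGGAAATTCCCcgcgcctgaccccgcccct
Ifit1: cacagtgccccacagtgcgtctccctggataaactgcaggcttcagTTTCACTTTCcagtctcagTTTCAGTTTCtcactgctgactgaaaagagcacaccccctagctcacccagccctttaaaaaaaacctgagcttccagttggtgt
Rsad2: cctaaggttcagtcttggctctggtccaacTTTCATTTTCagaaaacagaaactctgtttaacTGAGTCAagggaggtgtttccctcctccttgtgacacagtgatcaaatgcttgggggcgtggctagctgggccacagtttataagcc
Isg15: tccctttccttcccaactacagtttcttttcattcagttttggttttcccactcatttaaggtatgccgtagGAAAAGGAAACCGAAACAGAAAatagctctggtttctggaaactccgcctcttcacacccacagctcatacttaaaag

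Over all promoters of this kind, with windows of 300 bases from 250 before to 50 after the start, 20188 promoters of 16553 measured genes were found, and 9.39% of them held a kappa B match. The share was 17.1% in the 548 promoters of genes that rose at least 4-fold, 20.3% in the 148 of genes that rose at least 16-fold and 8.57% in the 315 of genes that fell at least 4-fold. The interferon-stimulated response element was in 3.35% of all promoters, 9.49% of those of genes that rose at least 4-fold and 1.59% of those of genes that fell at least 4-fold. In the 37 promoters found for the interferon-stimulated genes of the list the share was 56.8%. The AP-1 site was in 7.04% of all promoters, 11.1% of those that rose at least 4-fold and 5.08% of those that fell at least 4-fold. The cAMP response element TGACGTCA was in 2.34%, 3.1% and 3.81% of the same 3 sets, its shorter form TGACG, which it contains, in 24.6%, 24.3% and 34.3%, and the serum response element (CArG box) in 1.47%, 1.82% and 0.63%. Among the 13946 promoters of measured genes well above background in a wt group, the shares were 10.2% for kappa B, 3.28% for the interferon-stimulated response element, 5.73% for AP-1, 2.87% for TGACGTCA, 28.7% for TGACG and 1.41% for the CArG box. A match is a description of letters and not a binding site, and the genes were sorted by the changes measured here, so the shares carry no test.

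Genes of LPS sensing moved in opposite directions. Tlr4, the LPS receptor, fell from 11.77, 11.60, 11.45 and 10.95 to 10.06, 10.51, 10.91 and 10.56, a change of -0.93 ± 0.21 (adjusted p = 0.00381). The fall passed in the fit over all arrays but not with the replicate number as a block in the 8 wt arrays (adjusted p = 0.0747). Its co-receptor Cd14 rose from 15.78, 15.98, 15.59 and 15.31 to 17.59, 17.90, 17.75 and 17.55, and Ly96 (MD-2) stood at 0.25 ± 0.33. Of 14 Toll-like receptor genes 4 rose, among them Tlr2, the lipoprotein receptor, from 13.60, 14.39, 14.12 and 14.04 to 16.67, 17.02, 17.04 and 16.84, and its partners Tlr1 (2.02 ± 0.46) and Tlr6 (1.42 ± 0.14). Of 23 TLR4 signalling components 13 rose and 1 fell, with a median change of 0.73. The kinases Map3k8 (Tpl2, 2.86 ± 0.34) and Ikbke (2.48 ± 0.34) and the adaptors Myd88 (1.92 ± 0.17), Ticam1 (1.49 ± 0.27) and Ticam2 (1.47 ± 0.24) were among the larger rises. The exception was Tab1, an activating partner of the kinase TAK1, which fell from 12.01, 12.38, 12.52 and 12.36 to 9.71, 8.75, 9.06 and 9.71, while TAK1 itself (Map3k7) rose by 0.46 ± 0.14 and Tab2 by 1.42 ± 0.26. Of 12 inhibitors of TLR signalling, Irak3 (IRAK-M, 1.48 ± 0.15) and Lilrb4a (1.22 ± 0.22) rose, the ubiquitin ligase Rnf216 (-0.60 ± 0.12) and Pdlim2 (-0.81 ± 0.24) fell, and Sigirr and Tollip did not pass.

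Of 25 kinases of the p38, JNK and ERK cascades 8 rose and 3 fell. Mapkapk2, which codes for MK2, the p38-activated kinase that is missing in the MK2-/- mice, went from 12.46, 12.64, 11.49 and 12.28 to 14.84, 15.37, 14.19 and 14.67, a change of 2.55 ± 0.25 (adjusted p = 4.01e-07). Mapkapk3 (MK3) was at 13.12, 13.52, 13.58 and 13.78 and 13.96, 13.77, 14.35 and 13.94, with overlapping groups and a change of 0.51 ± 0.17 (adjusted p = 0.0397). That small rise did not pass with the replicate block in the 8 wt arrays (adjusted p = 0.103). Mapk14, the main p38 kinase, stood at -0.07 ± 0.12. Map2k4, which acts above JNK and p38, rose by 1.14 ± 0.26 and Mapk6 by 1.95 ± 0.14, whereas Map3k1 (-2.15 ± 0.22), the eIF4E kinase Mknk2 (-1.23 ± 0.38) and Map3k14, the NF-kB-inducing kinase NIK (-1.10 ± 0.30), fell. Of 12 dual-specificity phosphatases, which switch MAP kinases off, 6 rose and 1 fell. Dusp2 went from 8.80, 10.30, 8.73 and 8.72 to 17.27, 17.92, 17.43 and 16.38, with medium replicate 2 above the other medium arrays. Dusp1, the p38 and JNK phosphatase, went from 12.03, 11.63, 11.39 and 11.68 to 14.04, 14.05, 14.49 and 14.45. Dusp5, Dusp16 and Dusp4 rose by 3.66 ± 0.47, 3.11 ± 0.25 and 2.11 ± 0.62, Dusp3 fell (-0.97 ± 0.22), and Dusp6 and Dusp10 did not pass.

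Transcription factor families split. Among 18 AP-1 factors 5 rose and 4 fell, or 8 and 4 with the block. Fos, a classical immediate early gene, was lower after 120 min of LPS than in medium, at 9.21, 9.98, 9.89 and 10.01 against 13.10, 13.50, 12.50 and 12.56, and Jun was lower too, at 12.21, 12.04, 12.07 and 11.62 against 14.24, 14.59, 12.98 and 12.97. The fall of Jun did not pass with the methods' two-sample test when this was adjusted over all genes (adjusted p = 0.0605). Junb rose from 8.90, 9.31, 9.52 and 9.28 to 11.51, 12.07, 11.36 and 11.16 and Maff, a small Maf protein, from 7.65, 6.40, 6.21 and 7.13 to 11.61, 12.30, 12.82 and 12.76. Batf2 and Batf rose by 3.30 ± 0.71 and 3.25 ± 0.50, and Atf3 and Fosl2 stood at 0.23 ± 0.25 and 0.20 ± 0.36. Mafg fell by 0.73, and Maf stood at -0.36 ± 0.41. Of 15 C/EBP and KLF factors 6 rose and 8 fell. Cebpa, the myeloid lineage factor, fell from 11.68, 12.81, 12.91 and 12.25 to 8.83, 9.53, 10.18 and 10.35, while Cebpd (2.10 ± 0.37) and Cebpb (0.78 ± 0.25), which serve acute phase genes, rose. Klf7 and Klf6 rose by 3.98 ± 0.22 and 1.48 ± 0.20, and Klf11 (-2.79 ± 0.40, 1 LPS array), Klf10 (-2.24 ± 0.21), Klf4 (-1.66 ± 0.29) and Klf2 (-1.65 ± 0.37) fell. Among 26 other macrophage factors and nuclear receptors, Tfec (5.01 ± 0.21), Ets2 (3.40 ± 0.46) and Mitf (1.46 ± 0.36) rose, and Tfeb (-2.39 ± 0.58), the regulator of lysosomal genes, Id3 (-2.21 ± 0.24), Fli1 (-1.20 ± 0.26) and the lipid-sensing receptor Pparg fell. Spi1 (PU.1), Runx1 and Mef2c did not pass. With the block 5 of these factors rose, Spi1 among them (adjusted p = 0.0335), and 5 fell. Zbtb46, known as a factor of dendritic cells, rose from 5.21, 4.46, 4.48 and 4.43 to 9.81, 10.86, 10.12 and 9.76, while the other 6 dendritic cell markers did not pass. Of 18 early genes under serum response factor or of the NR4A type, 8 rose and 1 fell, with 6.89 ± 0.49 for the GTPase Gem (1 medium array) and 3.60 ± 0.67 for Egr2, and Myc, Nr4a1 and Btg2 did not pass.

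**Figure D3:**
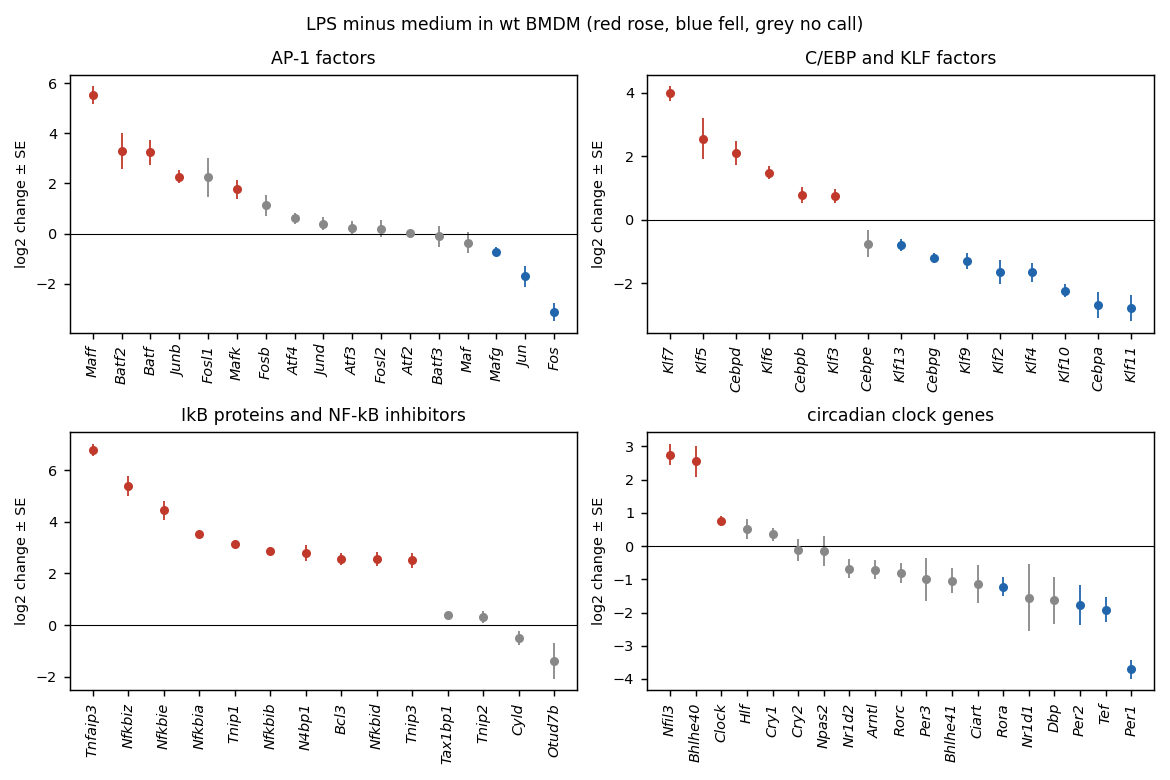
Log2 change (LPS minus medium, wt BMDM, y axis) with its standard error for the members of 4 gene groups, without 1 of the 18 AP-1 factors, red where the gene rose, blue where it fell and grey where it did not pass. The NF-kB inhibitors lie above 0 apart from Cyld and Otud7b, which did not pass, while the AP-1, C/EBP and KLF and clock genes spread to both sides.

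In the Notch pathway (18 genes, 3 rose and 3 fell) the ligand Jag1 rose by 3.79 ± 0.34, the ligand Dll1 rose at least 9.68-fold from below background and the nuclear factor Rbpj by 1.57 ± 0.24, whereas the target Hes1 fell from 6.36, 5.90, 6.42 and 6.58 to 4.85, 1.83, 1.80 and 2.29 and the target Hey1 by 1.51 and the modifier Lfng by 1.82. Hes1 was well above background on 1 LPS array only. Among 19 circadian clock genes, Per1 fell from 11.12, 11.43, 11.72 and 11.14 to 7.74, 7.02, 7.76 and 8.05 and Per2 (-1.78 ± 0.60, 1 LPS array), Tef (-1.92 ± 0.37) and Rora (-1.22 ± 0.28) fell as well, while Nfil3 (2.76 ± 0.32), Bhlhe40 (2.56 ± 0.46) and Clock (0.77 ± 0.15) rose. Arntl (BMAL1) stood at -0.71 ± 0.28. With the block 8 of the clock genes fell, Arntl among them (adjusted p = 0.0300), and 3 rose.

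Proteins that control the decay of messenger RNA changed in both directions, 9 of 20 up and 5 down. Zfp36 (tristetraprolin), which binds AU-rich elements of Tnf and other inflammatory transcripts and is a substrate of MK2, rose from 8.41, 9.35, 8.96 and 9.06 to 11.15, 12.16, 11.45 and 10.09. Its close relative Zfp36l2 fell from 14.98, 14.96, 15.18 and 14.99 to 11.32, 9.00, 9.55 and 10.55, a change of -4.92 ± 0.35, and Zfp36l1 stood at -1.11 ± 0.50. The medium arrays of Zfp36l2 lay close together and the LPS arrays further apart, with replicate 2 lowest. Zc3h12a, an endonuclease that degrades Il6 RNA, rose from 7.78, 8.55, 8.27 and 8.26 to 11.84, 11.93, 12.13 and 12.25, Zc3h12c rose by 3.13 ± 0.21, and Zc3h12d fell (-2.64 ± 0.46). The decapping genes Dcp2 (1.85 ± 0.52) and Dcp1a (0.88 ± 0.21) and the roquin genes Rc3h1 and Rc3h2 (0.69 ± 0.17 and 0.88 ± 0.30) rose. Tia1 fell by 0.90.

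Ptgs2, the inducible cyclooxygenase COX-2, went from 10.74, 6.26, 7.30 and 7.85 to 15.05, 15.90, 15.06 and 14.39, and medium replicate 1, which had the highest sum of stromal markers, was the highest medium array. In medium Adamts4, Edn1, Plat and Csf1 were likewise highest on replicate 1 and lowest on replicate 2, as was the stromal sum. The part of stromal cells in these levels was not tested. Of the 18 prostaglandin and leukotriene genes, Ptgs2 and the prostaglandin E2 receptors Ptger2 (1.60 ± 0.33) and Ptger4 (1.05 ± 0.30) rose. Ptges and Ptges2, 2 synthases of prostaglandin E2, fell by 0.50 and 0.49, but 0 genes of the list fell with 75th percentile scaling. With the block 5 rose and 2 fell, Pla2g4a (adjusted p = 0.0367) and Ptgir (0.0485) being added. Of 14 nitric oxide, arginine, itaconate and amine genes 6 rose and 0 fell. Nos2, the inducible nitric oxide synthase, was at 8.13, 8.09, 8.29 and 8.15 in medium and 11.51, 12.35, 10.49 and 9.34 after LPS. The LPS arrays were far apart, and the rise of 2.76 ± 0.81 did not pass without LPS replicate 1 or without LPS replicate 2 (adjusted p = 0.0593 and 0.0875). Gch1, which makes the cofactor of Nos2, rose by 3.76 ± 0.28, the arginine transporter Slc7a2 by 3.44 ± 0.43 and the histidine decarboxylase Hdc by 6.55 ± 0.71 (2 medium arrays). With the block 1 gene of this list fell, Sat1 (adjusted p = 0.0373). Arg1 was at 5.28, 2.10, 4.36 and 3.19 and 5.03, 1.90, 4.26 and 4.07 and did not pass. Of 23 antimicrobial and acute phase genes 9 rose and 0 fell, among them tissue factor F3 (5.78 ± 0.60), the lectin Clec4e (Mincle, 4.94 ± 0.35), Saa3 (3.06 ± 0.77) and lipocalin Lcn2 (2.41 ± 0.47), and the iron hormone gene Hamp rose at least 6.21-fold. Among 19 NADPH oxidase, iron and metal genes, the importer Slc39a14 (3.05 ± 0.39), the mitochondrial superoxide dismutase Sod2 (2.95 ± 0.22) and the metallothionein Mt2 (2.28 ± 0.33) rose and the iron exporter Slc40a1 (ferroportin, -2.14 ± 0.35) fell. Of 16 NRF2 targets the cystine transporter Slc7a11 (5.49 ± 0.63), the thioredoxin reductase Txnrd1 (1.75 ± 0.20) and Sqstm1 (1.68 ± 0.25) rose and Gclc fell (-0.62 ± 0.19), joined with the block by Gclm (adjusted p = 0.0138), and of 16 heat shock genes 4 rose, Hspa1a most (3.51 ± 0.59, with a near-identical copy), and 2 fell. In the inflammasome list (19 genes, 6 rose and 3 fell) Nlrp3 (4.45 ± 0.24), Nod2 (4.79 ± 0.25), Casp4 (2.96 ± 0.26) and the kinase Ripk2 (4.15 ± 0.33) rose, while Casp1, Gsdmd and Pycard did not pass and Nlrp1b fell (-1.31 ± 0.35).

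Genes of cell survival and death were also divided. Bmf, a BH3-only protein that promotes apoptosis, fell from 12.26, 11.90, 12.89 and 12.59 to 7.09, 6.13, 6.83 and 7.06, the second largest fall of all named genes. Cflar (c-FLIP), which blocks caspase-8, rose from 8.40, 9.22, 8.67 and 9.03 to 14.12, 15.05, 14.80 and 14.38. In all, 8 of 21 BCL2 family and survival genes rose and 3 fell. The survival genes Gadd45b (5.01 ± 0.29), Bcl2a1d (4.37 ± 0.25, with near-identical copies), Bcl2l1 (2.44 ± 0.39), Birc3 (2.37 ± 0.21) and Birc2 (1.72 ± 0.17) rose, but so did the pro-apoptotic Bcl2l11 (Bim, 3.63 ± 0.19) and the cell cycle inhibitor Cdkn1a (3.61 ± 0.24). Bax fell by 0.44. Of 21 TNF family, TRAF and death signalling genes 8 rose and 3 fell. The ligands Tnfsf9 (4-1BBL, 7.87 ± 0.37), Tnfsf15 (6.27 ± 0.64) and Tnfsf10 (TRAIL, 4.30 ± 0.80) and the receptor Fas (3.50 ± 0.32) rose, and the adaptors Fadd (-0.73 ± 0.17), Traf5 (-0.59 ± 0.18) and Tradd (-0.38 ± 0.11) fell.

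At the cell surface Cd40, the receptor for T cell help, went from 7.91, 8.99, 8.93 and 9.28 to 15.70, 16.61, 16.21 and 15.68. Of 20 co-stimulatory and activation molecules 9 rose and 3 fell, with 8.09 ± 0.48 for Cd69, 4.52 ± 0.54 for Cd274 (PD-L1) and 4.00 ± 0.37 for Cd83, and with -1.43 ± 0.26 for Cd80, which fell. Cd86 stood at 0.62 ± 0.23 and passed with the block (adjusted p = 0.0259). Of 22 adhesion molecules and integrins 6 rose, and Itgam, the alpha chain of CR3, fell (-0.90 ± 0.25), with the block joined by Itga6 (adjusted p = 0.0280). The integrin ligands Vcam1 (5.74 ± 0.85) and Icam1 (5.25 ± 0.25) and the proteoglycan Sdc4 (5.46 ± 0.61) rose. Of 29 scavenger, lectin and Fc receptors, 3 rose and 2 fell. Olr1 went from 3.13, 3.11, 2.13 and 2.48 to 11.30, 12.12, 12.47 and 11.57, the inhibitory Fc receptor Fcgr2b rose by 2.54 ± 0.54 and Msr1 by 2.35 ± 0.33. Mertk, which serves the uptake of dying cells, was at 9.51, 11.54, 11.56 and 10.50 and 8.03, 9.09, 9.81 and 9.44. Its fall of 1.69 (adjusted p = 0.0237) did not pass within the 8 wt arrays alone without pairing (adjusted p = 0.0964). With the replicate number as a fixed block in these arrays it passed (adjusted p = 0.0200), being higher after LPS in 0 of 4 pairs. Among 24 purinergic, adenosine and lipid receptors, 7 rose and 7 fell. Adora2a and Adora2b, the adenosine receptors that raise cyclic AMP, rose from 4.96, 4.20, 3.59 and 4.90 to 11.11, 12.51, 11.61 and 10.67 and by 5.03 ± 0.31, and the niacin receptor Hcar2 by 7.46 ± 0.42. The lysophosphatidic acid receptor Lpar6 fell from 14.88, 15.26, 14.82 and 14.77 to 9.72, 9.77, 10.08 and 10.40, whereas Lpar1 rose by 3.51 ± 0.69. S1pr1 (-2.18 ± 0.49) and P2rx7 (-1.94 ± 0.32), the receptor for extracellular ATP, fell. None of the 11 MHC class II presentation genes passed, with a median change of -0.01, and of 18 MHC class I genes 3 rose by less than 1, among them Psme2 (0.92 ± 0.23), and 5 rose with the block. Of 19 complement and serpin genes 4 rose and 0 fell, with Serpina3f at least 11.2-fold higher, 4.67 ± 1.14 for Serpinb2 (PAI-2), 2.87 ± 0.91 for Cd55 (1 medium array), which protects cells from complement, and 1.87 ± 0.62 for C3.

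**Figure D4:**
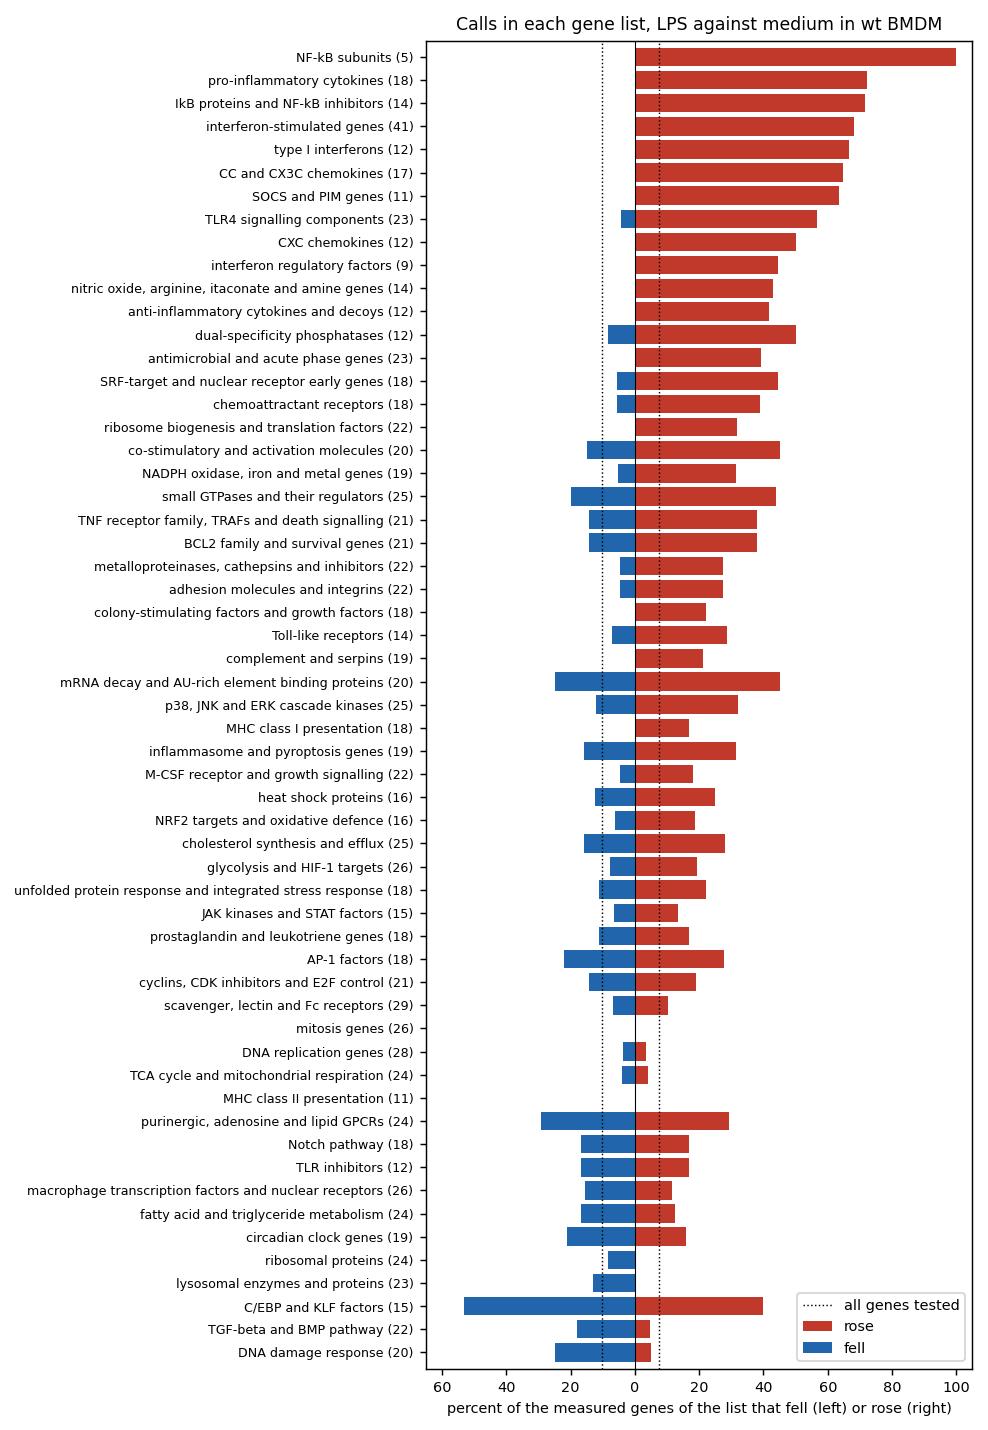
Percent of the measured genes of each gene group that rose (red, to the right) or fell (blue, to the left), with the number of measured genes in brackets, and dotted lines at the shares among all 26014 genes (7.57% and 10.3%). Among the 13457 named genes well above background in a wt group the shares were larger, at 12.0% and 16.4%. The groups at the top rose almost exclusively, the C/EBP and KLF factors have large shares on both sides, and the mitosis and MHC class II groups hold no call.

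Of 22 metalloproteinases, cathepsins and inhibitors 6 rose and 1 fell, led by the aggrecanase Adamts4 (7.26 ± 1.13) and by Mmp13 (6.68 ± 0.41) and Mmp10 (4.89 ± 0.56, 1 medium array). With the block 2 fell, Timp2 being added (adjusted p = 0.0133). Of 26 glycolysis and HIF-1 genes 5 rose and 2 fell. They were the regulator Hif1a (1.71 ± 0.17), the glucose transporters Slc2a1 (1.91 ± 0.25) and Slc2a6 (2.78 ± 0.32) and the regulatory enzyme Pfkfb3 (2.85 ± 0.27), with Adm, while Pfkfb4 (-1.93 ± 0.33) and Ankrd37 (-1.90 ± 0.37) fell and enzymes such as Gapdh (-0.01 ± 0.24), Ldha (0.04 ± 0.20) and Pkm (-0.38 ± 0.28) did not pass. Of 24 genes of the TCA cycle and respiration, Cycs rose (0.64 ± 0.22) and Fh1 fell (-0.52 ± 0.16), with the block joined by Ndufv1 (adjusted p = 0.0379). In cholesterol metabolism (25 genes, 7 rose and 4 fell) the oxysterol enzyme Ch25h (5.12 ± 0.45) rose most, the synthesis genes Idi1 (1.37 ± 0.24) and Hmgcs1 (1.34 ± 0.30) rose as well, and the efflux pump Abcg1 (-1.62 ± 0.31) fell, with Abca1 at -0.04 ± 0.36. Of 24 fatty acid genes, the acyl-CoA synthetases Acsl1 (1.66 ± 0.27) and Acsl4 (0.67 ± 0.14) and Acadl rose, and Acsl3 (-1.62 ± 0.34), Cpt1a (-0.92 ± 0.22), which carries fatty acids into mitochondria, Acadm and Fads1 fell. With the block 4 of the fatty acid genes rose and 7 fell. The 23 lysosomal genes held 3 falls, each of less than 0.5, and with 75th percentile scaling 0 fell and 1 rose. With the block 7 fell, Lipa (adjusted p = 0.0151) among them. Of 24 ribosomal protein genes Rps18 (-0.48 ± 0.15) and Rplp1 (-0.32 ± 0.09) fell, and none was called with that scaling, while their median moved from -0.07 to 0.21. In contrast, 7 of 22 genes of ribosome biogenesis and translation initiation rose and 0 fell, among them Eif1a (1.75 ± 0.26), Polr1b (1.13 ± 0.20) and the cap-binding protein Eif4e (1.01 ± 0.21).

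Of 26 mitosis genes 0 passed, while Mki67, a marker of dividing cells, with a change of 1.34 ± 0.51, passed with the block (adjusted p = 0.0299). Of 28 DNA replication genes Tyms rose (1.02 ± 0.17) and the licensing factor Cdt1 fell (-2.12 ± 0.35), and 3 fell with the block. Among 21 cyclins, CDK inhibitors and E2F genes, Ccnd2 (2.82 ± 0.67) and Cdk6 (1.95 ± 0.35) were among 4 that rose and E2f2 (-2.95 ± 0.85) among 3 that fell. The DNA damage group had 5 falls among 20 genes and 1 rise. Sesn1, a stress-induced inhibitor of mTORC1 signalling and target of p53, fell from 13.40, 14.58, 14.34 and 13.84 to 8.85, 8.48, 10.54 and 11.21. Xpc (-2.57 ± 0.55), Trp53inp1 (-2.54 ± 0.54) and Sesn2 (-1.82 ± 0.30), known as p53 targets too, fell. Trp53 itself rose by 0.91 ± 0.22, and the targets Mdm2 and Ccng1 did not pass. Of p53 targets in other groups, Cdkn1a (3.61 ± 0.24) and Fas (3.50 ± 0.32) rose and Bax (-0.44 ± 0.13) fell. Bbc3, Pmaip1 and Gadd45a did not pass. Of 22 TGF-beta and BMP genes 4 fell and 1 rose, with -2.74 ± 0.40 for the inhibitor Smad6. In the group of small GTPases and their regulators (25 genes, 11 rose and 5 fell) Rnd1 (7.08 ± 0.42) and Rasgrp1 (5.50 ± 0.41, 1 medium array) rose, and Rhov (-4.88 ± 0.55, 1 LPS array) and the G protein regulator Rgs2 (-3.34 ± 0.25) fell. In the unfolded protein and stress response group, the phosphatase subunit Ppp1r15a (GADD34) rose by 4.26 ± 0.24 and the kinases Eif2ak3 (PERK) and Eif2ak4 (GCN2) fell by 1.91 and 1.07. With the block 4 of this group fell, Ddit3 (CHOP, adjusted p = 0.0184) and Dnajb9 (0.0429) being added. Of 22 M-CSF receptor and growth signalling genes 4 rose and 1 fell, and Csf1r stood at -0.18 ± 0.10.

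The largest falls belonged to genes of varied function. Frat1, which binds the kinase GSK3 and favours Wnt signalling, was at 9.25, 10.36, 10.56 and 9.88 in medium and 4.52, 2.90, 3.75 and 5.59 after LPS, with 3 LPS arrays still well above background. The arrestin domain gene Arrdc3 went from 9.19, 9.47, 10.64 and 9.94 to 4.17, 3.17, 4.31 and 5.14. Cbx8, a Polycomb protein, fell from 7.76, 7.96, 8.20 and 8.09 to 4.73, 2.45, 1.79 and 2.52, and LPS replicate 1, the highest LPS array, was the single one well above background. Hhex, a homeobox factor of blood cell development, fell from 11.74, 12.20, 12.03 and 11.90 to 7.04, 8.26, 8.06 and 7.24. Zkscan4, a zinc finger protein, was well above background on all medium arrays, at 6.15, 6.46, 7.13 and 6.81, and on no LPS array, which makes it at least 8.72-fold lower. The small GTPase gene Rhov, the chaperone gene Dnajc28, the homeobox gene Dlx2, the receptor Gpr146 and the genes Fam78a and AI467606 had changes from -4.88 to -4.46, for which 1 LPS array of Rhov, Dnajc28 and Dlx2 was well above background. The falls of Gpr146 and Fam78a rest on the probe used, since with the probe of the highest LPS induction they were -0.17 and -0.73 and did not pass.

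Zinc finger genes named Zfp stood out among the falls. The family was picked after its values had been seen, from a count over all 65 symbol stems with at least 20 named genes well above background in a wt group, and it therefore carries no test. The symbol covers proteins with DNA-binding C2H2 fingers, many of them repressors, and a few others such as the RNA-binding Zfp36 genes. Of 328 such Zfp genes 190 fell (57.9%) and 20 rose (6.10%), beside 16.4% and 12.0% of all 13457 named genes filtered in the same way. The median change was -0.90 beside -0.108, and 273 of the 328 values lay below 0. With normexp background the median was -0.58, with 199 lower and 22 higher. After Zfp36l2 the largest falls were those of Zfp273 (-3.61 ± 0.39), Zfp41 (-3.39 ± 0.67) and Zfp647 (-3.39 ± 0.58, 2 LPS arrays) among those well above background on at least 1 LPS array, while Zfp248 was at least 4.95-fold lower. Zfp273 was at 7.46, 7.59, 8.23 and 7.79 in medium and 4.70, 3.15, 4.02 and 4.75 after LPS. Zfp811 rose most, from 1.84, 1.93, 2.22 and 2.77, not well above background, to 6.99, 9.05, 7.85 and 6.98, or at least 19.2-fold, followed by Zfp819 (3.33 ± 0.43, 2 medium arrays) and Zfp800 (2.81 ± 0.31). The level of the Zfp genes in medium was lower than usual, with a median of 8.80 beside 9.87 for all genes filtered in the same way, and the part of signal level in the shift was not tested. With 75th percentile scaling 176 of them fell and 21 rose. The related Zbtb stem came next by share, with 17 of 39 genes lower (43.6%) and 9 higher.

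**Figure D5:**
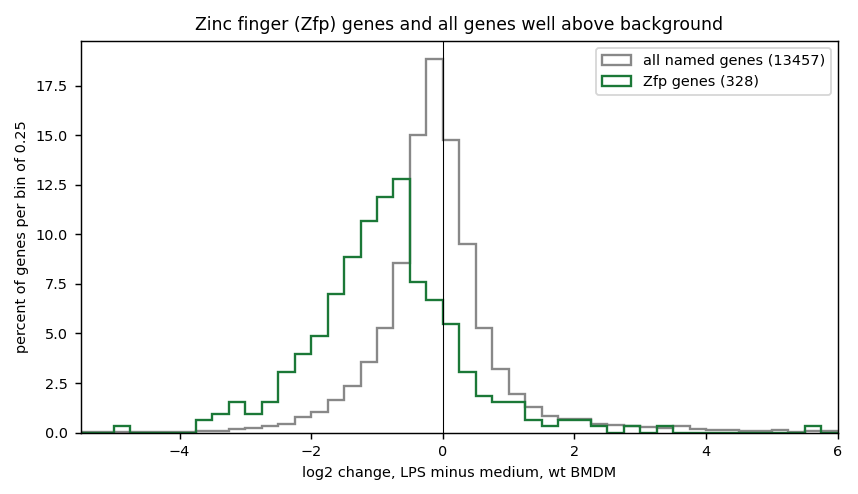
Percent of genes per bin of 0.25 log2 units of change (LPS minus medium, wt BMDM, x axis) for the 328 Zfp genes (green) and for all 13457 named genes that start with a letter and were well above background in a wt group (grey). The Zfp curve is shifted to the left, with its median at -0.90.

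Whether the LPS response of wt BMDM differed from that of BMDM without MK2, or without MK2 and MK3, was tested as a difference of the responses in the same fit. The targeted genes were checked first. On the wt medium arrays Mapkapk2 had a level of 12.22 ± 0.51 (SD, n = 4). Without MK2 it was lower, at 8.91 ± 0.17 (SD, n = 3), and without both kinases it was 8.72 ± 0.16 (SD, n = 4), with all of these arrays still well above background. Mapkapk3 had levels of 13.50 ± 0.28 in wt, 13.74 ± 0.14 without MK2 and 11.88 ± 0.22 without both kinases (SD, with the same numbers of medium arrays). After LPS the levels of Mapkapk2 were 14.77 ± 0.49 in wt, 11.96 ± 0.28 without MK2 and 11.76 ± 0.34 without both kinases, and those of Mapkapk3 were 14.01 ± 0.24, 13.98 ± 0.14 and 10.70 ± 0.26 (SD, 4 arrays each). Whether these probes lie in the deleted parts is not given in the sources used here. For MK2-/- minus wt, 1 of 26014 genes passed (0.00384%), Sbk3, a gene of the SH3-binding domain kinase family, which changed by -0.43 in wt and 1.43 in MK2-/- BMDM. Sbk3 was well above background on 0 of the 8 wt arrays and held in 6 of 15 alternatives, and 0 genes passed with 75th percentile scaling, with normexp background, with the filter on dim genes or with any 1 wt array other than medium replicate 2 left out. For MK2/3-/- minus wt, 4 genes passed (0.0154%), namely Mapkapk3 itself with 0.51 in wt and -1.17 in MK2/3-/-, Grpel2, a co-chaperone of mitochondrial import, with 0.34 and -0.91, the keratin gene Krt10 with -0.50 and -1.92, and the transcript AK133004 with 2.19 and -0.01. The count was 12 with normexp background, 20 with the block and 8 without wt LPS replicate 3, and Krt10 held in 8 of 16 alternatives. At an unadjusted p under 0.05 the counts were 491 and 1212 genes. Each genotype lay on a slide of its own, so genotype and slide cannot be told apart in the levels. The ages of the mice also differed between the genotypes, and the part of age was not tested. A difference that did not pass does not show that the responses were alike.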

How the data were processed

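RNA of 8 wt, 7 MK2-/- and 8 MK2/3-/- BMDM samples was hybridised to 1-colour Agilent mouse arrays. Per the file headers, spots were read with Feature Extraction 11.0.1.1, and the deposited intensity used here is the processed signal, corrected for background by that software. A table of log2 values deposited by the authors, quantile-normalized and set to the median of each probe per the methods, served as an alternative, and the deposited log2 values followed the scanner values closely (r = 0.99994). The methods compared groups with a two-sample t-test, kept the probe with the highest LPS induction of a gene and set signals under 5 to 5.

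Here control spots and flagged spots were left out, and log2 processed signals were quantile-normalized over all 23 arrays. The probe with the highest mean level over these arrays stood for its gene, so that probes were not ranked by the tested difference. That mean includes the LPS arrays, so the choice is not independent of the response. Of 55681 probes 32885 carried a RefSeq or GenBank accession and gave 26014 genes, 20886 of them named through the RefSeq table of GRCm38.p6 and the rest under their accession. Il12b was not measured under its symbol. No probe was saturated. Of the probes 56.2% to 60.8% were well above background on a wt array, and precision is limited by how many arrays there are. Two-sided tests were made in limma 3.58.1 (lmFit and eBayes, R 4.3.3) with 6 group means, and Benjamini-Hochberg was applied over all genes at 0.05. The labels give 4 independent experiments. A gene well above background on no array of a group was given an "at least" fold, against the higher of the lowest signal well above background and its own signal on each array of that group. Alternatives were 75th percentile scaling, normexp background (offset 50), a filter on dim genes, the floor of 5, other probe rules, the deposited log2 values, the 8 wt arrays alone, the methods' t-test, replicate blocks and leaving out each wt array.

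Replicate numbers paired the medium and LPS samples, since the deviations of same-numbered samples from their group means correlated at 0.568, 0.456, 0.258 and 0.219 over all genes and those of other pairs at 0.034 or less. The genes named were the 15 largest rises and 15 largest falls of named genes that passed, were well above background on all 4 arrays of the higher group and had groups that did not overlap, with the targeted genes, the markers and members of 57 gene groups and 8 marker lists. Groups, lists and tests were chosen with earlier results of these data known. Motifs were searched in the RefSeq promoters of GRCm38.p6. The script of the fit was tested on simulated data. A few genes of the lists are counted but not reported here by name.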

Additional observations from a re-analysis of the deposited data

Results flagged for a closer look

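A value far from the other 3 arrays of its group, by Dixon's ratio, was met in 9 of 132 groups of 4 arrays of 66 genes, the 30 largest changes and all but 4 of the others given by array, and chance gives about 1 in 20. They were wt medium replicate 2 for Tnf (10.35, with the next array at 9.24), Tnfaip3 (10.43, next 10.14) and Dusp2 (10.30, next 8.80), wt medium replicate 1 for Gfi1 (2.72, next 1.95, not well above background), wt medium replicate 3 for Zfp36l2 (15.18, next 14.99), wt LPS replicate 1 for Fos (9.21, next 9.89) and Hes1 (4.85, next 2.29), and wt LPS replicate 3 for Ccl2 (14.63, next 16.44) and Zkscan4 (2.05, next 1.77, not well above background). In Tnf, Tnfaip3 and Dusp2 the highest medium array lay more than 6 log2 units below the mean of the LPS arrays.

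The LPS response differed between genotypes for 5 genes by the test of the difference in limma, with Benjamini-Hochberg adjustment. Sbk3 differed by 1.86 ± 0.27 (SE) between MK2-/- and wt (adjusted p = 0.0385), and this held in 6 of 15 alternatives. Between MK2/3-/- and wt the differences were -1.68 ± 0.24 for the targeted gene Mapkapk3 (adjusted p = 0.0113), -1.24 ± 0.15 for Grpel2 (adjusted p = 0.00429) and -2.20 ± 0.32 for AK133004 (adjusted p = 0.0113), each of which held in 16 of 16 alternatives, and -1.42 ± 0.23 for Krt10 (adjusted p = 0.0314), which held in 8 of 16.

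Probes with no RefSeq or GenBank accession were not part of the comparison of genes. In the same kind of fit, 756 of these 22796 probes were higher and 827 lower after LPS in wt BMDM, which is 6.94% of them, and 258 and 251 of the calls were at least 4-fold. These probes are not named here.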

How the results depend on the processing

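Between 1411 and 2511 genes rose and between 1695 and 3585 fell over the alternatives. The methods' t-test, adjusted here by Benjamini-Hochberg over all genes, gave the fewest (1411 rose, 1695 fell). Its count of falls was more than 1.5 times under the 2679 reported. The methods name no such adjustment. At an unadjusted p under 0.05 this t-test called 7146 genes in either direction, beside 7212 in the limma fit reported. Without single wt arrays the counts ran from 1558 to 2109 and from 2048 to 2925. The numbers paired the wt samples, and with the culture as a random replicate block over all arrays 2511 genes rose and 3585 fell, while a fixed replicate block in the 8 wt arrays gave 2012 and 2727. The single gene of the MK2-/- difference was 0 genes with 75th percentile scaling, normexp background or only genes well above background, and 0 to 1 without single wt arrays. The 4 genes of the MK2/3-/- difference were 12 with normexp background and 20 with the replicate block, and 3 to 8 without single wt arrays. The cause of these differences was not tested. Of 66 genes, namely the 30 largest changes and the others given by array apart from Col1a1, Zbtb46, Zfp273 and Zfp811, 65 passed and 58 kept call and direction under all alternatives. The exceptions were Mapkapk3, Tlr4, Jun, Nos2, Mertk, Gpr146 and Fam78a, with 22 values that no longer passed and 0 of opposite direction. Mapkapk3 lost its call in 9 alternatives (adjusted p = 0.0519 to 0.143). Genes below background on all arrays of a group, such as Ifnb1, Il19 and Olr1, carry only bounds, and the changes of those above it on 1 to 3 arrays, such as Il1a, Ccl22, Areg and Rhov, rest partly on background. The Zfp genes that fell numbered 152 to 214 over the alternatives, with medians from -0.94 to -0.58.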
